A study of Rattus norvegicus with 12 samples.

Results

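The genes described here are 10 transcription factor genes, several of which cells switch on early after a growth or stress signal. They are the FOS genes Fos, Fosb, Fosl1 and Fosl2, the JUN genes Jun, Junb and Jund, and the early growth response genes Egr1, Egr2 and Egr3. They were taken by symbol from a table of 33294 rat genes and not by their values, though with earlier results of these data known. All 10 had enough counts to be tested in every comparison.

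FOS and JUN proteins are leucine zipper proteins that pair with each other to form AP-1, a dimer that binds short palindromic DNA sites. JUN proteins can also pair among themselves, whereas FOS proteins need a JUN partner. EGR proteins bind a GC-rich site through zinc fingers and are held in check by the corepressors Nab1 and Nab2. Several of these genes are immediate-early genes: kinase signals that end on SRF and its cofactors at CArG boxes induce them within minutes of serum or growth factor, and their mRNAs are short-lived. In vascular smooth muscle they are best known for induction after vessel injury, together with migration and growth of the cells.

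The cells were PAC1, a rat line of pulmonary artery smooth muscle cells, and all 12 libraries were made from poly(A) RNA. D1 libraries came from the more differentiated culture (PAC1-D) with a control siRNA, and P libraries from the more proliferative culture (PAC1-P) with a control siRNA. P cells were passaged more often and at a higher dilution, so that culture history and state cannot be told apart. RBPMS KD1 was PAC1-D treated with siRNA against Rbpms, an RNA-binding splicing regulator of smooth muscle, and MBNL KD was PAC1-D treated with siRNA against Mbnl1 and Mbnl2 together, which encode splicing regulators of the muscleblind family. Each group held 3 libraries, transfected according to the labels with 90 pmol of siRNA, again after 24 h, and collected 48 h after the second dose. The study's methods describe longer intervals, so the time since transfection, and since any serum change, is not settled for these fast-responding genes. The labels number the replicates without saying whether they were separate cultures. The study's methods state at least 3 biological replicates for each siRNA condition, without further detail for these libraries. The p-values measure the spread between those libraries.

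Promoter sequence was at hand for 7 of the 10 genes (RefSeq, build GRCr8, which is not the build of the counts), and 3 are shown because they hold the motifs searched. Each line gives the 150 bases before the annotated start of transcription, 5′ to 3′ on the strand of the gene, with motif matches in capitals. The window is chr18:26736928-26737077 on the plus strand for Egr1, chr20:21054442-21054591 on the minus strand for Egr2 and chr16:18769772-18769921 on the minus strand for Jund.
Egr1: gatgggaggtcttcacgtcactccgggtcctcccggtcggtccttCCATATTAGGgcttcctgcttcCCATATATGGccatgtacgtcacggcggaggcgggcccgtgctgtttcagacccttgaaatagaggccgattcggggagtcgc
Egr2: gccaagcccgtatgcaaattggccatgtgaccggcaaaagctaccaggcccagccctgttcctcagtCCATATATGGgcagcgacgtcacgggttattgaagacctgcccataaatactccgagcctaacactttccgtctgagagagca
Jund: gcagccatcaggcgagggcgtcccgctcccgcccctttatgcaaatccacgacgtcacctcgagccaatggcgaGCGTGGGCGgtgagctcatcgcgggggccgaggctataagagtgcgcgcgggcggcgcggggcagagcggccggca
In Egr1 the capitals mark 2 CArG boxes, the sites of SRF, at 105 to 96 and 83 to 74 bases before the start. In Egr2 they mark 1 CArG box, also 83 to 74 bases before the start. In Jund they mark the EGR site GCGTGGGCG, 76 to 68 bases before the start, and further upstream, outside the window shown, the Jund promoter held the cyclic AMP response element TGACGTCA at 221 to 214 bases.

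The search took both strands of the 250 bases before the start, and covered the AP-1 site TGANTCA, TGACGTCA, GCGTGGGCG and the CArG box. None of these spellings contains another. Among 33469 rat promoters of the same length, 6.34% held TGANTCA, 1.59% TGACGTCA, 0.478% GCGTGGGCG and 1.5% a CArG box. None of the 4 motifs was found in the 250 bases before Fosb, Fosl1, Fosl2 or Junb. These matches describe the letters only. In the counts, the 3 genes shown did not move alike between cultures: Egr1 fell by 0.14 on the log2 scale in P, while Egr2 rose by 1.03 and Jund by 0.47.

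Total counts per library lay between 80842635 and 90771289, with the lowest in MBNL KD replicate 3. Levels below are counts scaled to a common library size with TMM factors (scaled counts), as mean ± SD over 3 libraries. They compare a gene between groups and not 1 gene with another, since transcript length was not corrected for. The siRNA targets were lowered as labelled: Rbpms stood at 25.0% of D1 in RBPMS KD1, and Mbnl1 and Mbnl2 at 23.8% and 29.6% in MBNL KD, while P held 6.32% of the D1 level of Rbpms without that siRNA. The summed level of 7 smooth muscle markers was 16137 to 17120 in P, 643188 to 652413 in MBNL KD, 401513 to 416392 in RBPMS KD1 and 800458 to 841246 in D1. All 7 markers had counts in every group. Of 5 endothelial markers, Cdh5 and Kdr were at 0 in D1 and both knockdowns but not in P, and the sum was 482 to 600 in P, 162 to 163 in RBPMS KD1, 66.2 to 72.4 in D1 and 83.2 to 126 in MBNL KD. Of 5 leukocyte markers Itgam was at 0 outside P, with sums of 52.6 to 75.6 in RBPMS KD1, 53.0 to 81.6 in D1, 65.7 to 90.5 in MBNL KD and 72.6 to 126 in P. The 4 epithelial markers summed to 0 in RBPMS KD1, at most 1.98 in MBNL KD, at most 6.18 in D1 and 18.9 to 22.7 in P. The part of these low-level markers in the results was not tested. In bulk libraries, fewer cells that express a gene and less RNA per cell cannot be told apart.

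**Figure D1:**
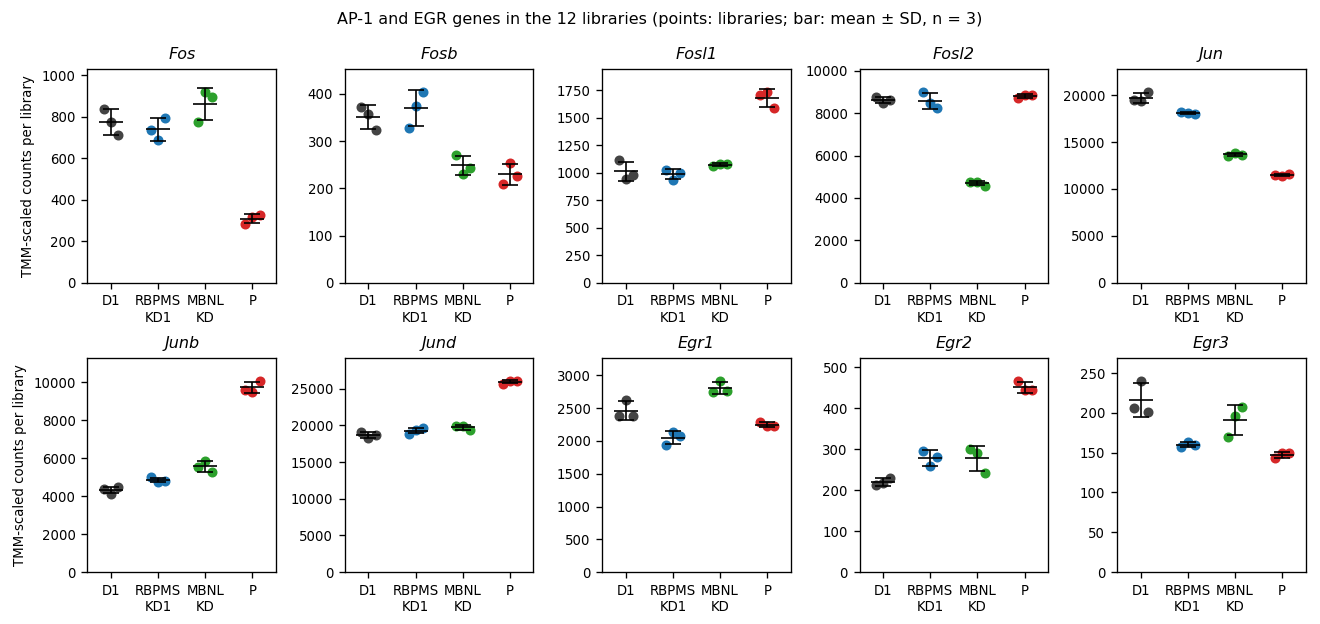
TMM-scaled counts (vertical axes, linear and starting at 0) of the 10 genes in the 12 libraries, by group. Points are libraries and bars are mean ± SD (n = 3). Fos stands apart in P at 309 ± 22.0, Fosl2 in MBNL KD at 4693 ± 99.5, and Jun and Junb run in opposite order across the 4 groups.

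The first comparison asked how the proliferative culture differs from the differentiated one. In P, Fos fell to 2.51-fold below D1, Junb rose 2.24-fold and Egr2 rose 2.05-fold. Jun, Fosb and Egr3 fell by less than the fold limit, and Fosl1 and Jund rose by less than it. Fosl2 did not pass the test. A gene was called changed where the edgeR adjusted p was under 0.05 and the fold was over the study's limit, which is 1 on the log2 scale up or down. The words rose and fell are used for an adjusted p under 0.05 alone.

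By that rule 3 of the 10 genes were called in P against D1, 2 higher and 1 lower. Over the 16814 genes tested the share called was 27.6%, with 16.4% higher and 11.2% lower, so the count among the 10 is close to the background. An adjusted p under 0.05 alone was reached by 9 of the 10, 4 higher and 5 lower, where 77.9% of all genes reached it. The median log2 fold change of the 10 was -0.05 and that of all genes 0.02. Their median absolute log2 fold change was 0.67, against 0.46 over all genes. Of all called genes 59.4% were higher in P, a share that became 46.1% with quantile normalization in place of TMM.

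The FOS genes did not move together in P. Fos, the founding member and a classic serum-response gene, had 836, 773 and 712 scaled counts in D1 and 284, 317 and 325 in P. Every P library lay below every other library in the series. The log2 fold change was -1.33 ± 0.084 (SE; edgeR adjusted p = 8.46e-16). Fosb, a close relative of Fos, had 372, 358 and 323 scaled counts in D1 and 209, 253 and 227 in P. The groups did not overlap, and Fosb fell by 0.62 ± 0.11 on the log2 scale (edgeR adjusted p = 5.88e-06). With quantile normalization the Fosb difference was -0.98 and with limma on the authors' normalised values -0.88, both short of the fold limit. An unnamed long noncoding gene, LOC103691049, overlaps Fosb in the annotation but had at most 6 counts in any library.

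Fosl1, which encodes FRA1, a FOS protein without the transactivation domain of Fos, moved the other way. It had 1114, 943 and 982 scaled counts in D1 and 1711, 1737 and 1588 in P, again without overlap. Its log2 fold change was 0.72 ± 0.059 (SE; edgeR adjusted p = 5.69e-13). Fosl2, which encodes the related FRA2, had 8769, 8499.9 and 8598 scaled counts in D1 and 8697, 8874 and 8868 in P. These libraries overlapped, and the difference of 0.03 on the log2 scale had a 95% interval of -0.03 to 0.08 (edgeR adjusted p = 0.375). Quantile normalization gave Fosl2 a log2 fold change of 0.07 with an edgeR adjusted p of 0.016. Within the family, then, P libraries held less Fos and Fosb and more Fosl1 than D1 libraries.

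Among the JUN genes, Jun went down in P while Junb and Jund went up. Jun, which encodes c-JUN, the JUN protein that most strongly activates AP-1 sites, had 19471, 19355 and 20368 scaled counts in D1 and 11458, 11427 and 11583 in P. The P libraries lay below all others in the series. The log2 fold change was -0.79 ± 0.026 (SE; edgeR adjusted p = 9.2e-24). Junb, whose protein is a weaker activator and in many settings restrains Jun, had 4369, 4124 and 4472 scaled counts in D1 and 9599.7, 9517 and 10077 in P. All P libraries lay above all others, and the log2 fold change was 1.17 ± 0.032 (SE; edgeR adjusted p = 4.93e-26). Jund, the JUN gene that is least dependent on stimulation, had 19118, 18256 and 18679.9 scaled counts in D1 and 25698, 26069 and 26032 in P. It rose without overlap by 0.47 ± 0.025 on the log2 scale (edgeR adjusted p = 5.85e-18).

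The 3 EGR genes each behaved differently in P. Egr1, a zinc finger factor induced by injury and growth factors, had 2384, 2628 and 2376 scaled counts in D1 and 2287, 2229 and 2234 in P. The libraries were separated by a small gap, and the log2 fold change was -0.14 ± 0.044 (SE; edgeR adjusted p = 0.00605). Without D1 replicate 2, the highest of its group, the log2 fold change of Egr1 was -0.09 and the edgeR adjusted p was 0.0737, and with all libraries quantile normalization gave -0.093 (edgeR adjusted p = 0.0682) and limma on the authors' normalised values -0.092 (adjusted p = 0.112). The fall of Egr1 thus depends on that library and on the normalization. Egr2, a relative known best from myelinating Schwann cells and lymphocytes, had 212, 216 and 230 scaled counts in D1 and 467, 444 and 444 in P. It rose without overlap, by 1.03 ± 0.098 on the log2 scale (edgeR adjusted p = 2.53e-11). The call of Egr2 lies just past the fold limit: quantile normalization gave 0.65 and limma on the authors' normalised values gave 0.60, both short of it. Egr3, which is itself a target of EGR proteins, had 206, 240 and 202 scaled counts in D1 and 143, 149.7 and 149 in P. Egr3 fell by 0.56 ± 0.14 on the log2 scale (edgeR adjusted p = 0.000429), and with quantile normalization by 1.02 (edgeR adjusted p = 4.45e-07), which is past the fold limit. In limma on the authors' normalised values the Egr3 difference was -0.85. Egr4, the other member of the family, had no counts outside P and 2 counts in each of P replicates 1 and 2.

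**Figure D2:**
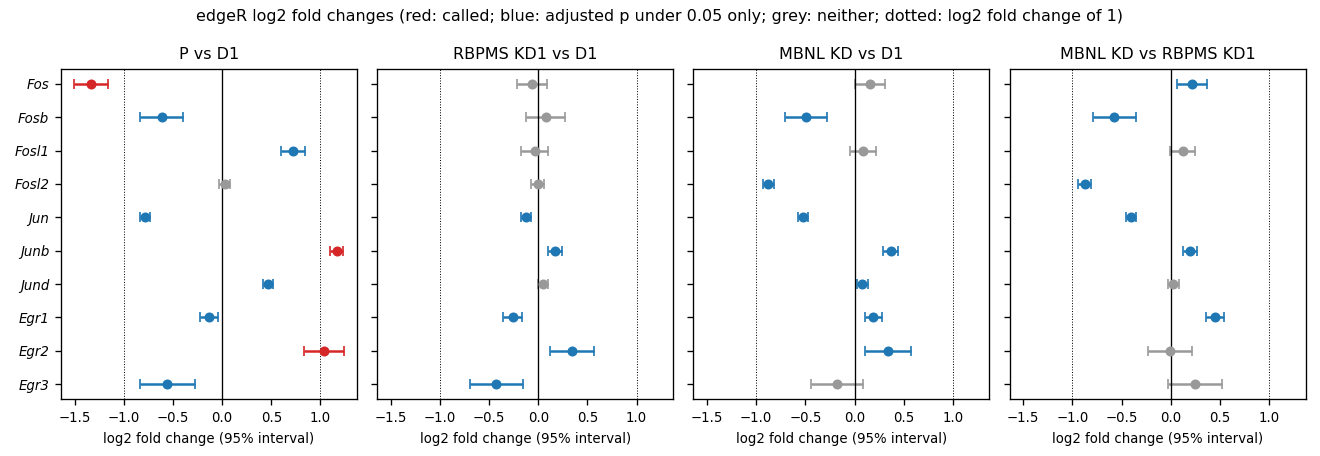
Log2 fold changes of the 10 genes (points) with 95% intervals (bars) from edgeR in the 4 comparisons, on a common horizontal axis. Red marks genes called changed, blue an adjusted p under 0.05 alone, grey neither, and dotted lines a log2 fold change of 1 in each direction. Called genes appear for P against D1 only: Fos, Junb and Egr2.

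Knockdown of Rbpms in D1 cells was compared next. The largest difference among the 10 genes was in Egr3, which stood at 74.2% of D1, followed by Egr2 at 127% of D1. Junb and Egr2 rose, and Jun, Egr1 and Egr3 fell, all within the fold limit. The FOS genes and Jund did not pass the test.

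None of the 10 genes was called in RBPMS KD1 against D1 by edgeR, where 4.68% of 15904 genes were called, 3.06% higher and 1.62% lower. DESeq2 on the counts also called 0 of the 10. The unadjusted p was under 0.05 for 5 of the 10, and so was the adjusted p (2 higher, 3 lower), against 59.1% of all genes tested. Of all called genes 65.4% were higher, and 53.2% with quantile normalization. The median log2 fold change of the 10 was -0.02 and that of all genes 0.00, and their median absolute log2 fold change was 0.10, below the 0.23 of all genes.

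Egr3 had 157, 164 and 159 scaled counts in RBPMS KD1, all below the D1 libraries (206, 240 and 202), with a log2 fold change of -0.43 ± 0.13 (SE; edgeR adjusted p = 0.006). Egr2 had 296, 258 and 280.5 scaled counts, all above the D1 libraries (212, 216 and 230), with a log2 fold change of 0.34 ± 0.11 (SE; edgeR adjusted p = 0.00914). In limma on the authors' normalised values the Egr2 difference was 0.21 with an adjusted p of 0.0785. Egr1 had 1944, 2139.9 and 2076 scaled counts, the lowest level of the 4 groups, with a log2 fold change of -0.26 ± 0.048 (SE; edgeR adjusted p = 2.65e-05). P and RBPMS KD1 were measured against the same D1 libraries, where the log2 fold changes in P were 1.03 for Egr2, -0.14 for Egr1 and -0.56 for Egr3, so that the comparisons are not independent.

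Jun had 18225, 18077 and 17952 scaled counts in RBPMS KD1, below all D1 libraries, with a log2 fold change of -0.12 ± 0.026 (SE; edgeR adjusted p = 0.00015). Junb had 5003, 4765 and 4795, above all D1 libraries, with a log2 fold change of 0.17 ± 0.036 (SE; edgeR adjusted p = 0.00016). These are small steps that were resolved because replicate libraries of Jun and Junb differed by little. Jund overlapped with D1 and had a 95% interval of -0.01 to 0.10 (edgeR adjusted p = 0.114). For Jund, quantile normalization gave 0.09 with an edgeR adjusted p of 0.00447.

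The FOS genes gave narrow intervals around 0 in RBPMS KD1. Fos had 734, 687 and 796 scaled counts, within the range of D1 apart from 1 lower library, and its 95% interval was -0.21 to 0.08 on the log2 scale (edgeR adjusted p = 0.467). Fosb had 329, 375 and 405, with an interval of -0.12 to 0.28 (edgeR adjusted p = 0.526). Fosl1 had 1023, 934 and 999.8, with an interval of -0.17 to 0.10 (edgeR adjusted p = 0.645). Fosl2 had 9008, 8481 and 8246, with an interval of -0.07 to 0.06 (edgeR adjusted p = 0.89). All 4 intervals lie within 0.28 of 0 on the log2 scale.

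Knockdown of Mbnl1 and Mbnl2 in D1 cells came next. Fosl2 stood at 54.4% of D1, Jun at 69.4% and Fosb at 71.0%. Junb rose to 129% of D1, Egr2 to 126% and Egr1 to 114%. Fos, Fosl1 and Egr3 did not pass the test.

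None of the 10 genes passed the fold limit in MBNL KD against D1 in edgeR, and DESeq2 on the counts called 0 as well, where edgeR called 10.2% of 16053 genes, 6.1% higher and 4.14% lower. The unadjusted p was under 0.05 for 8 of the 10 and the adjusted p for 7 (4 higher, 3 lower), against 67.5% of all genes tested. Of all called genes 59.6% were higher, and 50.1% with quantile normalization. The median log2 fold change of the 10 was 0.08 and that of all genes 0.01. In absolute size the medians were 0.27 for the 10 and 0.31 for all genes.

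Fosl2 had 4734, 4765 and 4579.6 scaled counts in MBNL KD, against 8246 to 9008 in RBPMS KD1, 8499.9 to 8769 in D1 and 8697 to 8874 in P. The MBNL KD libraries of Fosl2 stood far below all 9 others. The log2 fold change of Fosl2 was -0.88 ± 0.028 (SE; edgeR adjusted p = 8.92e-22) and was the largest among the 10 genes in this comparison. Its size lay at percentile 86.5 of the absolute log2 fold changes of all genes tested. Over the 14 alternative fits it stayed between -0.89 and -0.79.

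Jun had 13570, 13832 and 13673 scaled counts in MBNL KD, below all D1 and RBPMS KD1 libraries, with a log2 fold change of -0.53 ± 0.025 (SE; edgeR adjusted p = 1.79e-17). Fosb had 272, 231 and 244, below all D1 libraries and overlapping with P, with a log2 fold change of -0.49 ± 0.11 (SE; edgeR adjusted p = 0.000146). Junb had 5558, 5853 and 5284, above all D1 libraries, with a log2 fold change of 0.37 ± 0.036 (SE; edgeR adjusted p = 3.08e-10). Against the same D1 libraries, the log2 fold changes of Jun and Junb were -0.79 and 1.17 in P, -0.12 and 0.17 in RBPMS KD1 and -0.53 and 0.37 in MBNL KD. Jund had 19910, 19904 and 19385 scaled counts, a rise of 0.08 ± 0.025 on the log2 scale (edgeR adjusted p = 0.00628). Without D1 replicate 2 the Jund difference was 0.06 and the edgeR adjusted p 0.0568.

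Egr1 had 2747, 2917 and 2769 scaled counts in MBNL KD, above all other libraries, with a log2 fold change of 0.19 ± 0.044 (SE; edgeR adjusted p = 0.000272). Egr2 had 299.5, 291 and 242, above all D1 libraries, with a log2 fold change of 0.34 ± 0.12 (SE; edgeR adjusted p = 0.0107). The rise of Egr2 was less firm than that of Egr1. Without MBNL KD replicate 1 the log2 fold change of Egr2 was 0.28 and the edgeR adjusted p 0.0582, and with quantile normalization 0.19 and 0.146. Egr3 had 170.1, 196 and 207 scaled counts, which overlapped with D1, and its 95% interval was -0.44 to 0.09 (edgeR adjusted p = 0.232). With quantile normalization the Egr3 difference was -0.35 with an edgeR adjusted p of 0.016.

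Fos had 775, 921 and 894 scaled counts in MBNL KD, overlapping with D1, and a 95% interval of 0.01 to 0.31 on the log2 scale (edgeR adjusted p = 0.0572). The Fos test depends on single libraries and on the normalization. The edgeR adjusted p was 0.00898 without MBNL KD replicate 1 and 0.0305 without D1 replicate 1, with log2 fold changes of 0.23 and 0.21, and with quantile normalization the difference was 0.17 (edgeR adjusted p = 0.0495). Fosl1 had 1062, 1080.1 and 1083, inside the range of D1, with an interval of -0.04 to 0.22 (edgeR adjusted p = 0.228). Without D1 replicate 1 the Fosl1 difference was 0.15 and the edgeR adjusted p 0.047.

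The knockdowns were also compared with each other, since a gene that passes the test in 1 knockdown and not in the other is not thereby shown to differ. Relative to RBPMS KD1, MBNL KD had less Fosl2, Fosb and Jun and more Egr1, Junb and Fos. None of the 10 was called by edgeR or by DESeq2, where edgeR called 11.9% of 16111 genes, 5.88% higher and 6.03% lower. The unadjusted p was under 0.05 for 6 of the 10, and so was the adjusted p, 3 in each direction, against 69.5% of all genes.

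Between the knockdowns the median absolute log2 fold change of the 10 was 0.23, against 0.34 for all genes. Fosl2 differed most, with a log2 fold change of -0.87 ± 0.032 (SE; edgeR adjusted p = 1.66e-20). Fosb differed by -0.57 ± 0.11 (SE; edgeR adjusted p = 2.15e-05) and Jun by -0.41 ± 0.025 (SE; edgeR adjusted p = 4.19e-15). Egr1, which had moved in opposite directions from D1, differed by 0.45 ± 0.045 (SE; edgeR adjusted p = 3.06e-10). Junb differed by 0.19 (edgeR adjusted p = 1.47e-05) and Fos by 0.22 (edgeR adjusted p = 0.0103). The difference in Fos was no longer past the threshold without MBNL KD replicate 2 (0.16, edgeR adjusted p = 0.106) or without RBPMS KD1 replicate 2 (0.15, edgeR adjusted p = 0.112), nor in limma on the authors' normalised values (0.23, adjusted p = 0.0543). Fosl1 (0.12, edgeR adjusted p = 0.0774) did not pass the test, but did with quantile normalization (0.14, edgeR adjusted p = 0.039) and in limma on the normalised values (0.14, adjusted p = 0.0479). Jund, Egr2 and Egr3 did not pass the test, and the 95% interval for Egr2 was -0.23 to 0.22.

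Ordered by level, Jun fell from D1 through RBPMS KD1 and MBNL KD to P, and Junb rose along the same order of groups. In neither gene did the libraries of neighbouring groups overlap. For Fos, P lay apart from the 3 other groups, which overlapped as neighbours in the order MBNL KD, D1, RBPMS KD1. For Fosl1 and Jund, P was highest and the 3 D-culture groups overlapped as neighbours. Fosl2 was the 1 gene for which MBNL KD alone lay apart from the rest. Fosb fell into a higher pair of groups, RBPMS KD1 and D1, and a lower pair, MBNL KD and P, with overlap inside each pair. Egr1 ran from MBNL KD through D1 and P to RBPMS KD1 with no overlap of neighbours, although its group means lay within 2053 to 2811.

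The make-up of each family followed from these shifts. Since the share of a gene within its family is taken from counts without correction for transcript length, only changes of a share between groups are read. Fos made up 2.80% ± 0.18 of the FOS counts in P, 6.93% ± 0.60 in RBPMS KD1, 7.19% ± 0.43 in D1 and 12.5% ± 1.1 in MBNL KD. The share of Fosl1 was 9.40% ± 0.58 in D1 and 9.24% ± 0.33 in RBPMS KD1, but 15.6% ± 0.26 in MBNL KD and 15.2% ± 0.69 in P. MBNL KD and P thus reached a like share of Fosl1 from different sides: the scaled counts of Fosl1 rose in P, whereas in MBNL KD the FOS sum was 6880.4 ± 104 scaled counts against 10759.9 ± 288 in D1. The share of Fosl2 was 68.2% ± 0.93 in MBNL KD, against 79.9% ± 0.61 in P, 80.1% ± 0.99 in D1 and 80.4% ± 1.2 in RBPMS KD1. The share of Fosb was 2.08% ± 0.17 in P, 3.26% ± 0.19 in D1, 3.47% ± 0.47 in RBPMS KD1 and 3.62% ± 0.33 in MBNL KD.

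Jun made up 24.4% ± 0.12 of the JUN counts in P, 35.1% ± 0.48 in MBNL KD, 42.8% ± 0.46 in RBPMS KD1 and 46.2% ± 0.76 in D1. The share of Junb was 20.6% ± 0.45, 14.3% ± 0.50, 11.5% ± 0.33 and 10.1% ± 0.20 in the same order of groups. That of Jund was 55.0% ± 0.43, 50.6% ± 0.37, 45.7% ± 0.76 and 43.7% ± 0.79. The sum of the JUN genes varied less, from 38989.6 ± 625 scaled counts in MBNL KD to 47153 ± 484 in P, with 42738 ± 913 in D1. Among the EGR genes the share of Egr2 was 7.60% ± 0.59 in D1, 8.46% ± 0.90 in MBNL KD, 11.2% ± 1.1 in RBPMS KD1 and 15.8% ± 0.23 in P. The order of D1 and MBNL KD turned with the authors' normalised values, where the Egr2 share was 9.54% in D1 and 9.23% in MBNL KD. The share of Egr1 was 79.0% ± 0.044 in P, 82.4% ± 1.2 in RBPMS KD1, 84.96% ± 0.31 in D1 and 85.7% ± 0.32 in MBNL KD, and that of Egr3 was highest in D1 at 7.44% ± 0.31 and lowest in P at 5.17% ± 0.20. From the normalised values the Egr1 share was 79.4% both in P and in RBPMS KD1, 81.0% in D1 and 84.1% in MBNL KD. The gap that P and RBPMS KD1 showed in the counts was lost there, and the one from P to D1 was smaller. Shares are described and were not tested.

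**Figure D3:**
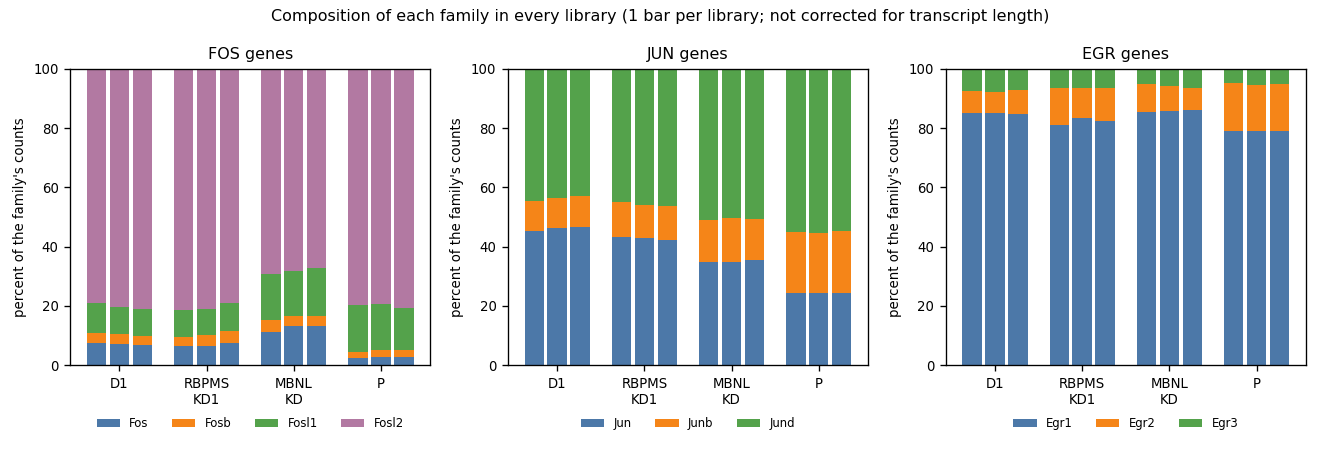
Share of each gene in the summed counts of its family (vertical axis, percent, not corrected for transcript length), with 1 stacked bar per library and the libraries ordered by group. The Fosl2 part shrinks in MBNL KD (68.2% against 80.1% in D1), the Jun part shrinks stepwise to 24.4% in P, and the Egr2 part is largest in P at 15.8%.

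The spread between replicate libraries differed among the 10 genes. The biological coefficient of variation from edgeR, over the 12 libraries and moderated towards genes of like abundance, was 2.29% for Jun, 2.39% for Jund, 2.42% for Fosl2, 2.80% for Junb and 3.32% for Egr1. It was 4.20% for Fosl1, 5.53% for Fos, 6.19% for Egr2, 6.99% for Fosb and 7.53% for Egr3. The common value over all genes was 3.17%. The Egr3, Fosb and Egr2 differences are therefore measured less precisely than those of Jun, Jund and Fosl2.

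The profiles most like those of 4 of the genes were looked up among 13404 other genes by Pearson's r of log2 scaled counts over the 12 libraries. The libraries fall into 4 groups, so r is a description that mostly follows the group means. Fos was most like Mga, a MAX-binding factor (r = 0.990), and the uncharacterised LOC100910088 and LOC100910821 (both 0.990). Scaled counts of Mga were lowest in P (867) and ranked from RBPMS KD1 (2273) through D1 (2548) to MBNL KD (2828). Fosl1 was most like Qsox1, a sulfhydryl oxidase (0.987), Sohlh2, a germ cell factor (0.986), and Kiz, a centrosomal protein gene (0.986). The likeness is in shape only, since the mean of Sohlh2 was 0.680 scaled counts in D1 and 17705 in P, while that of Kiz was 564 and 956. Among the genes most like Jun were Ctif and Tmem63b (both 0.992), and Egr1 was most like Slc30a5, a zinc transporter gene (0.972), LOC120102435 (0.969) and Riok2 (0.969).

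Genes around AP-1 and EGR were taken from lists of partners, other immediate-early genes, upstream kinases and factors, feedback inhibitors, and textbook targets. In P against D1, where 27.6% of all genes were called, the other bZIP genes gave 3 called of 10 tested (4 with DESeq2). Maf, a large MAF factor, rose from 31.7 to 4763 scaled counts (log2 fold change 7.22), Jdp2, a JUN-binding repressor, rose by 1.14, and Mafk, a small MAF protein, fell by 1.52. Atf3, a stress-induced partner of JUN proteins, rose by 0.54 without being called. Of the EGR corepressors, Nab2 rose by 1.03 and was called, and Nab1 fell by 0.55.

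Among 41 other immediate-early genes 18 were called in P, 6 higher and 12 lower, with a median log2 fold change of -0.44. Id1, an inhibitor of helix-loop-helix factors, had the largest rise at 2.89. Npas4, an activity-induced bHLH factor, had 142 ± 29.6 scaled counts in D1 and 0 counts in every P library, which is at least 49.8-fold lower against a limit of 3 counts per library. The list thus held genes of both directions. Of 13 feedback inhibitors of MAP kinase signalling (DUSP, SPRY and SPRED genes) 5 were called: the phosphatase gene Dusp5 rose by 2.34 and Spry4 (-2.84), Dusp1 (-2.59), Spry2 (-1.65) and Dusp4 (-1.16) fell. At an adjusted p under 0.05 alone 7 of the 13 were higher and 6 lower, with a median log2 fold change of 0.44. Over all genes 77.9% had such a p, and the median was 0.02. Of 18 upstream genes 2 were called, Rps6ka5, the kinase MSK1, at 3.98 and Srf, the factor that binds CArG boxes, at -1.22. Mapk14, Mapk7 and Mapk3, which encode p38, ERK5 and ERK1, were not called, at -0.35, -0.42 and 0.10.

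Among 16 tested genes listed as AP-1 targets 8 were called in P, 3 higher and 5 lower, with a median log2 fold change of -0.23. Gja1, encoding the gap junction protein connexin 43, had the largest rise at 1.61, and Hbegf, an EGF receptor ligand, the largest fall at -1.96. Among 10 genes listed as EGR targets 6 were called, 5 higher and 1 lower, with F3, tissue factor, highest at 6.81. Dusp1, Dusp4 and Spry2 above, and Arc, Mmp9, Mapk7, Ccn2, Fgf2 and Pdgfb below, lie outside the rule for naming genes and were named after their values were seen. The lists are textbook lists and overlap with each other (Nab1 and Nab2 appear in more than 1), and binding was not measured.

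In RBPMS KD1, where 4.68% of all genes were called, few genes of these lists were called. Batf3, a bZIP partner of JUN proteins, was the 1 called partner of 10, at 19.8 scaled counts against 7.49 in D1. It passed the count filter through the knockdown libraries, and DESeq2 called 0 of the 10. Npas4 and Arc were the 2 called of 41 immediate-early genes, at -1.15 and -1.01. Mapk14, the gene of p38, was the 1 called upstream gene of 18: with 6473 scaled counts against 15348 in D1, it fell by 1.24 on the log2 scale. Mmp9 was the 1 called AP-1 target of 17, from 13.6 to 39.3 scaled counts. Mmp9 had too few counts to be tested in P against D1, so it passed the count filter through the knockdown libraries, where it is higher. At an adjusted p under 0.05 alone, which 59.1% of all genes had, 14 of the 17 were higher and 2 lower, and their median log2 fold change was 0.36 where that of all genes was 0.0043. Of the other lists, 0 of 13 feedback genes and 0 of 9 EGR targets were called by edgeR or DESeq2, with an unadjusted edgeR p under 0.05 for 10 and 7 of them. Srf fell by 0.53 without being called.

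In MBNL KD, where 10.2% of all genes were called, the kinase genes Mapk3 and Mapk7 were the 2 called of 18 upstream genes. Mapk3 fell from 11508 to 4237 scaled counts (log2 fold change -1.44) and Mapk7 from 3875 to 1557 (-1.31). Among the bZIP genes, Maff (1.14) and Batf3 (2.38) rose and Maf (-1.82) fell, and Jdp2 rose by 0.999 without passing the fold limit of 1. The D1 levels of Batf3 and Maf given above are low, so both folds rest on few counts. Batf3 passed the count filter through the MBNL KD libraries. Of 41 immediate-early genes 4 were called, Id1 at 2.68, Maff at 1.14 and Ccn2 at 1.08 upwards, and Errfi1, a feedback inhibitor of the EGF receptor, at -1.26. Of 17 AP-1 targets 7 were called, 6 higher and 1 lower, the latter Dcn, decorin, at -1.24. Mmp9, among the 6 higher, again passed the count filter through the knockdown libraries. The median of the AP-1 targets was 0.56 where that of all genes was 0.01. Of 10 EGR targets 3 were called, all higher, among them Fgf2 (1.04) and Pdgfb (3.85). Pdgfb had too few counts to be tested in RBPMS KD1 against D1, so here it passed the count filter through the MBNL KD libraries. Its calls in P and between the knockdowns likewise depend on the P and MBNL KD libraries, and its fold rests on a low D1 level. Of 13 feedback genes 0 were called by edgeR or DESeq2, with an unadjusted p under 0.05 for 10. The adjusted p was under 0.05 for 8 higher and 2 lower genes, against 67.5% of all genes in either direction.

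**Figure D4:**
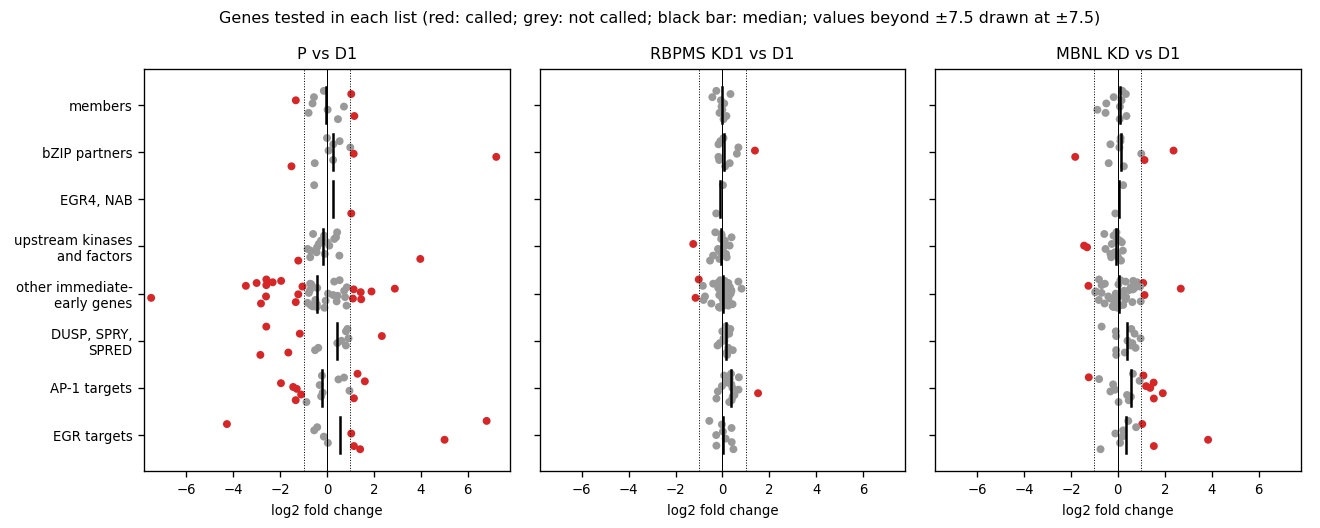
Log2 fold changes (horizontal axes) of every tested gene of each list in P, RBPMS KD1 and MBNL KD against D1. Points are genes, red points called genes, black bars list medians, and dotted lines a log2 fold change of 1 in each direction, with the fitted value of Npas4 in P drawn at the edge. The spread is widest in P, where 18 of 41 other immediate-early genes were called, and narrowest in RBPMS KD1, where 2 were.

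Between the knockdowns, where 11.9% of all genes were called, 2 of 10 partners differed past the fold limit. Maff was higher (1.27) and Maf, on few counts, lower (-1.66) in MBNL KD. Mapk3 (-1.75) and Mapk7 (-1.36) were lower in MBNL KD, and 0 of 13 feedback genes were called by edgeR or DESeq2, with an unadjusted p under 0.05 for 13. Of 41 immediate-early genes 6 were called, 4 higher and 2 lower, led by Id1 (1.86) and Ier5l (-1.13). Of 17 AP-1 targets 6 were called (4 higher, 2 lower) and of 10 EGR targets 4 (3 higher, 1 lower), with Dcn (-1.95) and Tgfb1 (-1.21) the largest falls.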

How the data were processed

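RNA-seq of poly(A) RNA from 12 PAC1 libraries was analysed, with groups and replicate numbers taken from the sample labels. The deposited counts are reads per gene, not normalized: the authors subsampled all libraries to 1 depth with seqtk, aligned them with STAR 2.7.11b to mRatBN7.2 and counted them with featureCounts and the RefSeq annotation. The strand setting and the counting of mates are not given in the sources used here. The totals per library exceed the number of reads the study's methods give after subsampling, so whether both mates of a pair were counted is not settled, and counts divided by 2 were tried. A second deposited table holds the authors' normalised signal for 19812 of the 33294 genes, made with noisyR and quantile normalization. Its smallest value is 35, which narrows folds of low genes. It was used for alternatives only, in limma as log2 values without a pseudocount.

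Counts were tested in R 4.3.3 with edgeR 4.0.16: filterByExpr on the 6 libraries compared, TMM, the quasi-likelihood F test and Benjamini-Hochberg adjustment over all genes tested. The thresholds (adjusted p under 0.05, absolute log2 fold change above 1) are those of the study's methods. SEs were taken from the F statistic, as effect over root F. Alternatives used DESeq2 1.42.0, limma 3.58.1, other normalizations, filters and samples. The procedure was tested on simulated data, and 0 pairs of libraries held identical counts. The labels give the same replicate numbers in each group, but deviations of same-numbered libraries correlated by at most 0.0842 over 12647 genes, so no pairing was assumed.

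Named genes were the 10 members, the siRNA targets, detected partner genes and, per list, the called gene with the largest rise and fall among genes whose higher group had a mean of 100 scaled counts or more. Of the genes this rule selects, 2 are not reported here. The members and lists were chosen with earlier results of these data known, so that no count over a list is independent evidence. Promoters came from RefSeq tables of GRCr8. Depth limits precision by counting error and replicate spread, and a count of 3 was the limit used for genes at 0.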

Additional observations from a re-analysis of the deposited data

How the results depend on the processing

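The number of the 10 genes called, 3 in P, 0 in RBPMS KD1, 0 in MBNL KD and 0 between the knockdowns, was the same with DESeq2's size factors, without a filter on low counts, with DESeq2 on the counts, with 1 fit of all 12 libraries, with counts divided by 2, and without any 1 library. Without the fold threshold the numbers were 9, 5, 7 and 6. Quantile normalization also gave 3 in P but a different 3, with Egr3 past the fold limit and Egr2 (0.65) short of it, and limma on the normalised values gave 2, with Egr2 at 0.60.

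Of 560 alternative fold changes of single genes, 548 kept direction and side of the call, and 9 changed sign, all of them in genes whose difference did not pass the test. For Fosl2 in RBPMS KD1 against D1 these were 0.034 with quantile normalization and with limma on the normalised values, and 0.0030 to 0.022 without RBPMS KD1 replicate 2, RBPMS KD1 replicate 3 or D1 replicate 1 (all leave-one-out fits: -0.042 to 0.022). For Fosl1 in the same comparison they were 1.45e-05 without RBPMS KD1 replicate 2 and 0.033 without D1 replicate 1 (all: -0.089 to 0.033), and for Egr2 between the knockdowns 0.072 without MBNL KD replicate 3 and 0.031 without RBPMS KD1 replicate 1 (all: -0.076 to 0.072). Apart from fits with fewer libraries, the cause was not tested. Family shares from the normalised values differed from those from counts by more than 1 SD in 19 of 40 cases, with Egr1 in D1 at 81.0%.

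When the replicate block entered the fit, the called genes again numbered 3, 0, 0 and 0, Fos in P stood at -1.33, and no gene of the 10 changed its side of an adjusted p of 0.05. Same-numbered libraries correlated best with their own number in 3 of 6 cases for P and D1, 0 of 6 for each knockdown and D1, and 6 of 6 between the knockdowns, a hint from the data and not from the design. Low counts limit Egr2, Fosb and Egr3 most, with a replicate spread of 6.19% to 7.53%.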

Other observations

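Genes that control the decay of immediate-early mRNAs were looked at as a list of 8. In P against D1, Zfp36l2, which encodes a protein that binds AU-rich elements and speeds mRNA decay, had 51066 scaled counts against 19877, and its log2 fold change was 1.36 ± 0.025 (SE; edgeR adjusted p = 7.24e-31). It was the 1 called gene of the 8, where 27.6% of all genes were called, and 6 of the 8 had an adjusted p under 0.05 (3 higher and 3 lower), where 77.9% of all genes did. In RBPMS KD1 and in MBNL KD 0 of the 8 were called by edgeR or by DESeq2. Over all genes edgeR called 4.68% and 10.2%. The unadjusted edgeR p was under 0.05 for 7 of the 8 in each, and Zfp36l2 stood at 20762 and 21921 scaled counts. At an adjusted p under 0.05, 6 of the 8 were lower and 0 higher in RBPMS KD1 (median log2 fold change -0.20), against 59.1% of all genes in either direction. In MBNL KD 5 were lower and 2 higher (median -0.090), against 67.5% of all genes. The medians over all genes were 0.0043 in RBPMS KD1 and 0.0099 in MBNL KD.

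Heat-shock genes, which are often induced along with immediate-early genes when cells are stressed during handling, were looked at as a list of 6. Their summed level was 72970.2 to 75292 scaled counts in RBPMS KD1, 78114 to 80986 in P, 81914 to 88147 in D1 and 87839 to 89059 in MBNL KD, so that the sum was not lower than D1 in MBNL KD. The called genes were lower. Hspa1b, an inducible HSP70 gene, had 52.4 scaled counts in P, 93.2 in MBNL KD, 191 in RBPMS KD1 and 246 in D1. Its log2 fold change was -2.24 ± 0.17 in P and -1.40 ± 0.15 in MBNL KD (SE; edgeR adjusted p = 9.2e-14 and 8.53e-10). Of 6 tested heat-shock genes 2 were called in P, Hspa1b and Hspb1 (-1.61), and 1 in MBNL KD, where 27.6% and 10.2% of all genes were called. In each of these comparisons all 6 had an adjusted p under 0.05, 4 lower and 2 higher. Over all genes 77.9% in P and 67.5% in MBNL KD reached it. In RBPMS KD1 0 were called by edgeR or DESeq2, where edgeR called 4.68% of all genes. The unadjusted edgeR p was under 0.05 for 5, and the adjusted one for 4 lower and 1 higher, against 59.1% of all genes. Hspb1 was named after its values were seen.

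Of 7 cell cycle genes 0 were called in P by edgeR or DESeq2, with an unadjusted edgeR p under 0.05 for 5 and an adjusted one for 4, all higher, against 27.6% called and 77.9% at that adjusted p over all genes. In RBPMS KD1 0 were called by edgeR or DESeq2, and 6 of the 7 had an adjusted and an unadjusted p under 0.05, all lower, against 59.1% of all genes at that adjusted p. In MBNL KD all 7 had an adjusted p under 0.05 and were lower, against 67.5% of all genes at that p in either direction, with Ccnb1, the cyclin of mitotic entry, called at -1.02. The summed level of the 7 was 54333 to 54484 scaled counts in MBNL KD, 66730 to 68914 in RBPMS KD1, 80368 to 82570 in D1 and 96450 to 99293 in P. Its part in the levels of the AP-1 and EGR genes was not tested.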
